A study of Mus musculus with 30 samples.

Results

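The genes of the lipid droplet coat and of triglyceride breakdown were followed in quadriceps muscle of mice fed a high fat or a low fat diet. The 9 genes are Plin2, Plin3, Plin4 and Plin5, which encode perilipins, and Pnpla2, Abhd5, G0s2, Lipe and Mgll, which encode the lipases and their regulators. They were taken as a named list by Entrez gene ID, and 9 of 9 had a row among the 16475 non-control entries of the deposited expression table. All 9 exceeded an intensity of 20 on 5 or more arrays. RNA of 30 male mice was hybridised to Affymetrix arrays, 1 mouse per array, in 3 groups of 10. HF day 56 mice (20 weeks old) had 56 days of high fat diet, LF day 56 mice (20 weeks old) stayed on the low fat diet for those 56 days, and LF day 0 mice (12 weeks old) were killed when the others started. Every mouse had first eaten the low fat diet for 3 weeks from 9 weeks of age, and the 2 diets were given at random. The labels spell the strain C56BL/6J, and they name no genetic change and no pooling of animals.

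Muscle stores triglyceride in droplets covered by perilipin proteins. Adipose triglyceride lipase, the product of Pnpla2, takes the first fatty acid off; Abhd5 (CGI-58) activates it and G0s2 inhibits it. Hormone-sensitive lipase, encoded by Lipe, then acts on diglyceride, and Mgll, monoglyceride lipase, releases the last fatty acid. Plin5 is most abundant in oxidative tissues, where it holds droplets near mitochondria, while Lipe is much more abundant in adipocytes than in muscle fibres. Fatty acids activate the nuclear receptors called PPARs, of which Plin2 and Plin5 are known targets.

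RefSeq promoter windows (GRCm38.p6) were read for the 9 genes, from 250 bases before to 50 bases after each annotated start, which gave 12 windows because some genes have more than 1 start. They were searched on both strands for AGGTCA, the hexamer that many nuclear receptors bind, for its direct repeat with 1 base between the copies, the arrangement bound by PPAR with its partner RXR, and for the E-box CACGTG. For the 3 genes with the smallest p-values between the diets 1 window each is shown, with AGGTCA (or its complement) and CACGTG in capitals. Plin5 and Mgll have 2 windows each, of which the one starting farther upstream is printed. The printed Plin5 window is chr17:56117499-56117798 on the minus strand, the Plin2 window chr4:86670010-86670309 on the minus strand and the Mgll window chr6:88724162-88724461 on the plus strand.
Plin5: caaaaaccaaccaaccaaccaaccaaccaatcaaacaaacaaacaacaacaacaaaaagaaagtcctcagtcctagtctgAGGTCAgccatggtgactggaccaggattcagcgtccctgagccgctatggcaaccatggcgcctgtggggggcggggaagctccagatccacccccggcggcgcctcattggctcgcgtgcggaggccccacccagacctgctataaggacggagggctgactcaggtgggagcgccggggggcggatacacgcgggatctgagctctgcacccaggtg
Plin2: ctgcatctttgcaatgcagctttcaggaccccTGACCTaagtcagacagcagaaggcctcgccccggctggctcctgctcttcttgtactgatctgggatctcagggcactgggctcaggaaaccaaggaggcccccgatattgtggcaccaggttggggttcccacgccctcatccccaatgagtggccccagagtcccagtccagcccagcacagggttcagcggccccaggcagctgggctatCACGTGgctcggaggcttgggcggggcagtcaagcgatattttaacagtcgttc
Mgll: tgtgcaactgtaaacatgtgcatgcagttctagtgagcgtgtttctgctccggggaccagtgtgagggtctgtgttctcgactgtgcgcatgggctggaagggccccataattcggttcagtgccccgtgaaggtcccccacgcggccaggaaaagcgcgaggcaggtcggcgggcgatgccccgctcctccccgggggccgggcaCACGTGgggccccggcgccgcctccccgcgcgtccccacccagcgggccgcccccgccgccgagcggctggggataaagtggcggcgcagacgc
In the printed Plin5 window the hexamer begins 170 bases before the start. The other Plin5 window, chr17:56117249-56117548, also holds it, 13 bases after its own start. The Plin2 window holds it 218 bases before the start, on the opposite strand, and has an E-box that begins 4 bases before the start. The printed Mgll window holds an E-box 44 bases before the start, and the other Mgll window, chr6:88724454-88724753, holds none of the motifs. Over the 12 windows, 4 held AGGTCA, which 16.3% of all 32851 RefSeq windows of this length hold, and 3 held CACGTG, which 7.15% hold. The direct repeat was in 0 of the 12 windows and in 0.0396% of all windows. A match is a run of letters and not evidence of binding.

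Values are the authors' GCRMA intensities on a linear scale, and differences are on the log2 scale with no pseudocount. A gene is said to have passed where its p-value from limma, adjusted over all 16475 entries, was at most 0.05. Array medians lay between 8.9 and 9.4, and the number of arrays limits the precision of each value. Of the skeletal muscle fibre markers 10 of 10, among them Ckm, Acta1 and Myh4, were above 20, which cannot tell quadriceps from another muscle. Among these markers 0 passed in limma in any comparison, with 0 at an unadjusted p of 0.05 or less. The signal of the spike-in controls parted the arrays into a set of 9 and a set of 21, with 3 of the 9 in every group. S100a8, a neutrophil gene, exceeded 100 on 6 HF day 56, 4 LF day 56 and 7 LF day 0 arrays. Adipocyte markers were present in all groups. Of 11 listed, 9 were measured and 7 were above 20 on 5 or more arrays, Lep in HF day 56 alone. The summed intensity of the 9 was 6615 to 11230 in HF day 56, against 6055 to 9928 in LF day 56 and 5973 to 7942 in LF day 0 muscle. Most of this sum was Fabp4, with medians of 6573.5, 6042 and 5858 in these groups. The medians of the sum were 8128, 7035 and 6498.5. Plin1, the perilipin of fat cells, and Cfd were not analysed here. The summed intensity of the 8 slow fibre markers spanned 273 to 5637 in HF day 56, against 368 to 7983 in LF day 56 and 388 to 5866 in LF day 0 muscle. In bulk muscle, fewer cells of a type and less RNA per cell cannot be told apart.

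The high fat diet was compared with the low fat diet at equal age, the question named in the title of the series. None of the 9 genes passed (0 of 9, beside 0.0243% of all entries). Plin5 had the largest difference, at 47.3% higher in HF day 56 than in LF day 56 muscle, followed by Mgll at 23.9%. Of the 9 differences 8 were above 0, with a median of 0.14 on the log2 scale against 0.00 over all entries, and 3 genes (Plin5, Mgll and Plin2) had an unadjusted p at or below 0.05, as did 5.1% of all entries and 5.03% of those present, that is above 20 on 5 or more arrays.

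Among the perilipins, Plin5 had a lowest, median and highest intensity of 223, 334 and 534 in HF day 56, against 164, 241 and 293 in LF day 56 and 166, 209 and 279.5 in LF day 0 muscle. Of the 10 HF arrays 8 lay above the highest LF day 56 array, and the groups overlapped because HF replicates 5 and 9 were lower. The log2 difference between the diets was 0.56 ± 0.13 (SE, n = 10 each; 95% interval 0.30 to 0.82), with an unadjusted p = 0.00012 and a limma adjusted p = 0.112. With 1 array left out this adjusted p crossed the threshold in 2 of 20 fits and went up to 0.26 in the others. It was 0.0325 without HF replicate 5 and 0.0489 without HF replicate 9, the lowest HF arrays for Plin5. These arrays also had the lowest slow fibre marker means of the HF group (4.19 and 4.15). With the slow fibre marker mean as a covariate the difference was 0.58 ± 0.10 (adjusted p = 0.00507), in a fit that called 0.0728% of all entries. It did not pass with the adipocyte marker mean (0.60 ± 0.14, adjusted p = 0.307) or with the array set as a factor (0.56 ± 0.12, adjusted p = 0.0801). Of 16 alternative fits on other settings 2 passed, each with the slow fibre mean. Fitted on the set of 21 arrays alone, the diet difference was 0.48 (adjusted p = 0.639). On the set of 9 alone, 3 arrays against 3, it was 0.75, with an adjusted p = 0.993. Among those 9, S100a8 was above 100 on 2 HF day 56 arrays, 0 LF day 56 arrays and 3 LF day 0 arrays. Without any of the arrays high in S100a8 the Plin5 difference was 0.42 (4 HF and 6 LF day 56 arrays, adjusted p = 0.991). HF replicates 5 and 9 were among the 4 HF arrays kept. Each of these 3 smaller fits called 0% of all entries, so a missed threshold there says little.

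Plin2, the perilipin found on droplets of most cells, read 347, 499.85 and 554 (lowest, median, highest) in HF day 56, against 254, 402 and 637 in LF day 56 and 331, 384 and 458 in LF day 0 muscle. The single highest array was LF day 56 replicate 6, and no HF array exceeded it. The HF against LF day 56 difference was 0.23 ± 0.11 (SE, n = 10 each; limma adjusted p = 0.974). It was 0.05 with the adipocyte marker mean as a covariate. That mean itself differed between the diets (7.16 in HF day 56 and 6.65 in LF day 56), so this fit cannot part adipocyte RNA from diet.

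Plin4, a perilipin found in muscle and fat, had intensities of 971, 1289 and 1483 in HF day 56, against 1056, 1216 and 1342 in LF day 56 and 960, 1110.3 and 1231 in LF day 0 muscle. The diet groups overlapped widely: 4 HF arrays lay above the highest LF day 56 array and 1 below the lowest, a difference of 0.07 ± 0.07 (95% interval -0.07 to 0.20, adjusted p = 0.998). Plin3, a perilipin that is also found free in the cytosol, read 113, 153 and 192 in HF day 56, against 114, 147 and 182 in LF day 56 and 138, 169 and 205 in LF day 0 muscle. Its diet difference was 0.01 ± 0.09 (95% interval -0.18 to 0.21, adjusted p = 0.998).

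**Figure D1:**
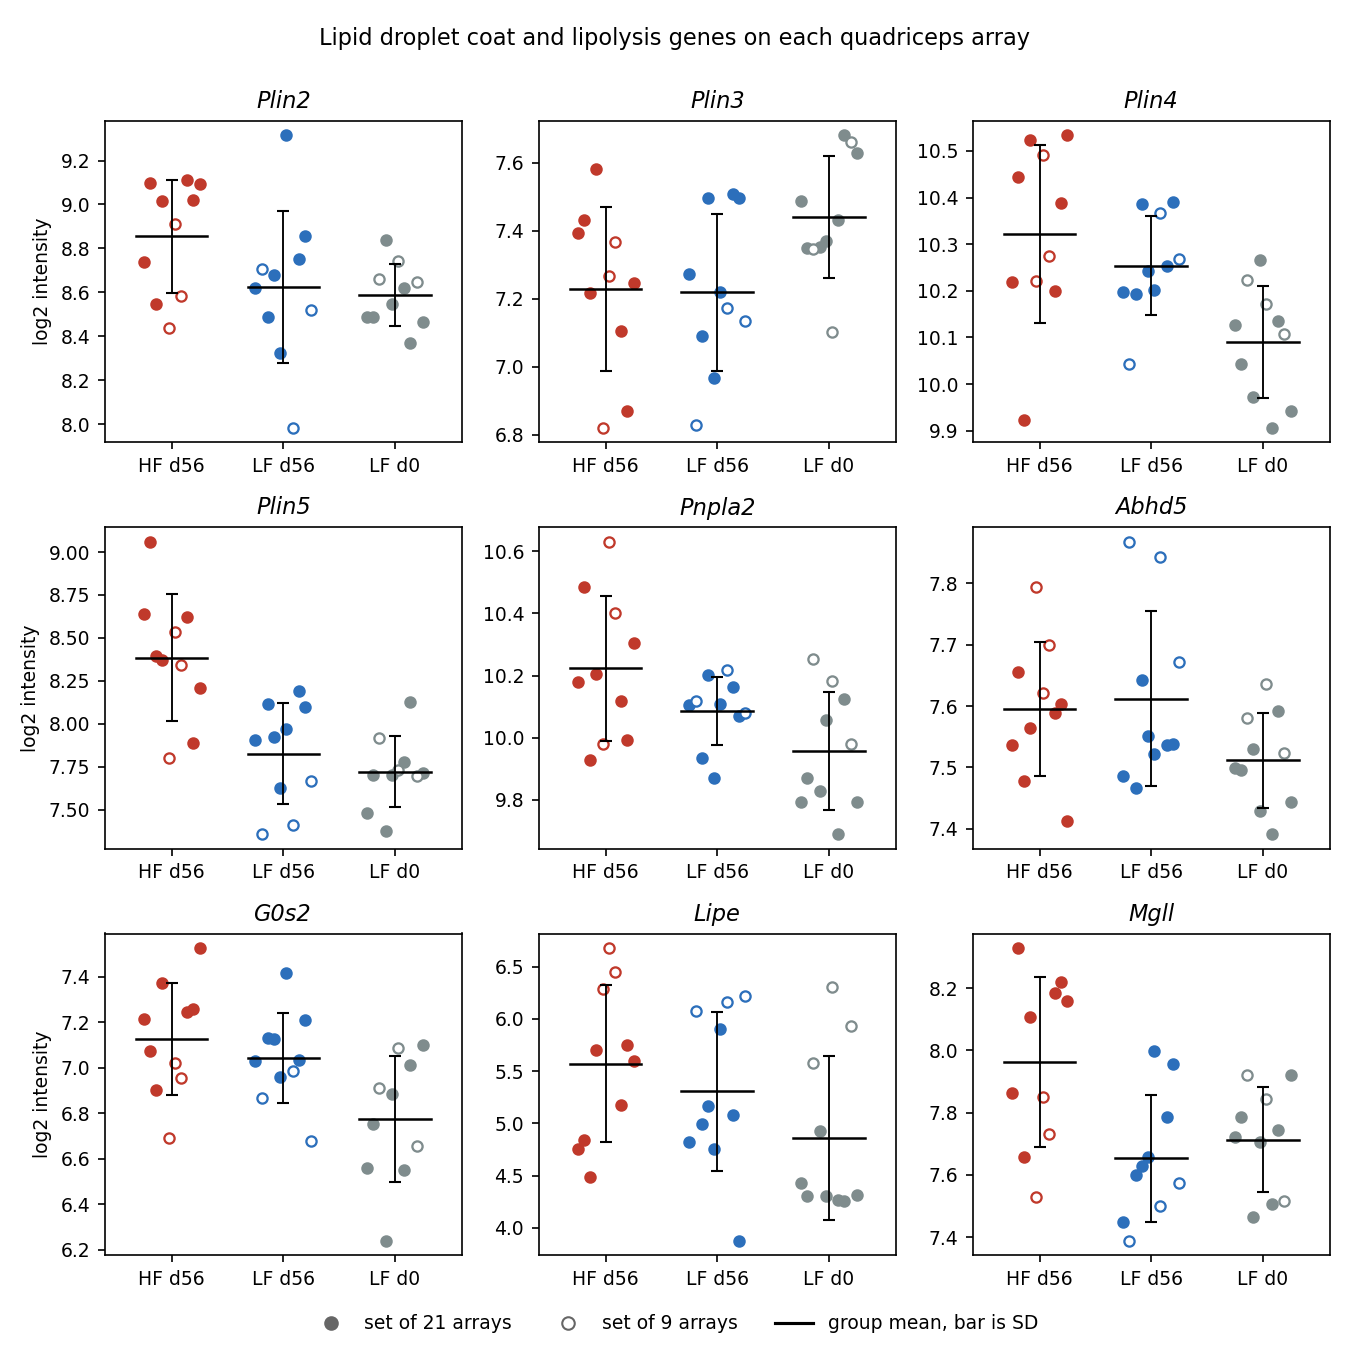
Intensity of each of the 9 genes on every array (log2 GCRMA intensity, vertical axes, each with its own range that does not start at 0), with HF day 56 left, LF day 56 in the middle and LF day 0 right. Points are single mice (filled for the set of 21 arrays, open for the set of 9), lines are group means and bars the SD. Plin5 stands out in HF day 56, where 8 of 10 arrays lie above the highest LF day 56 array, and the Lipe values part by array set within every group.

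Of the 5 lipolysis genes, Mgll had the smallest p between the diets. Its intensities were 185, 254 and 322 in HF day 56, against 168, 196 and 256 in LF day 56 and 177, 213 and 243 in LF day 0 muscle. All but 1 of the 10 HF arrays were above the LF day 56 mean and 5 were above its highest array. The difference was 0.31 ± 0.10 (95% interval 0.12 to 0.50, unadjusted p = 0.00275), and it did not pass (limma adjusted p = 0.542). With the adipocyte marker mean as a covariate it was 0.18, in a fit that cannot part adipocyte RNA from diet.

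Pnpla2 read 974, 1171 and 1586 in HF day 56, against 937, 1103 and 1191 in LF day 56 and 826, 973 and 1221 in LF day 0 muscle. With 4 HF arrays above every LF day 56 array, the groups still overlapped, and the difference was 0.14 ± 0.08 (adjusted p = 0.998). Its activator Abhd5 varied little between mice, at 170.4, 194 and 222 in HF day 56, against 177, 187 and 234 in LF day 56 and 168, 182 and 199 in LF day 0 muscle. The Abhd5 diet difference was -0.02 ± 0.05 (95% interval -0.13 to 0.09, adjusted p = 0.998).

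For G0s2, the inhibitor, the intensities were 103, 142 and 184 in HF day 56, against 103, 131 and 171 in LF day 56 and 75.6, 113 and 137 in LF day 0 muscle. Only 1 HF array was above the highest LF day 56 array, and the difference was 0.08 ± 0.10 (adjusted p = 0.998). Lipe had the widest spread of the 9 genes in every group (log2 SD 0.75 in HF day 56, 0.76 in LF day 56 and 0.79 in LF day 0), at 22.4, 50.2 and 102 in HF day 56, against 14.7, 34.9 and 74.5 in LF day 56 and 19.1, 20.8 and 79.1 in LF day 0 muscle. Its diet difference was 0.27 ± 0.32, with a 95% interval of -0.39 to 0.92 (adjusted p = 0.998).

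The age and time comparison set LF day 56 against LF day 0 muscle. None of the 9 genes passed (0 of 9, beside 0.85% of all entries). 3 of the unadjusted p-values were at or below 0.05, those of G0s2, Plin4 and Plin3, as were 10.1% of all entries and 13.9% of those present. G0s2 differed by 0.27 ± 0.10 (SE, n = 10 each; limma adjusted p = 0.318), with 9 of 10 LF day 56 arrays above the day 0 mean. Plin4 differed by 0.16 ± 0.07 (adjusted p = 0.345), also with 9 of 10 arrays above that mean. Plin3 differed by -0.22 ± 0.09 (adjusted p = 0.395), and 7 of its 10 LF day 56 arrays were below the day 0 mean. For Plin5 the difference was 0.10 ± 0.13 (95% interval -0.15 to 0.36, adjusted p = 0.862). Tendon markers fell in the same comparison (4 of 6), as did the endothelial gene Cldn5 (by 0.79, adjusted p = 0.013). The 6 tendon markers had a summed intensity of 2273 to 2829 in LF day 56 and 3118 to 4769 in LF day 0 muscle, and the part of these cell types in the values of the 9 genes was not tested.

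HF day 56 against LF day 0 joins diet and age and shares its arrays with both comparisons above. Plin5 passed and was the 1 gene of the 9 to do so (1 of 9, beside 1.59% of all entries, or 0.783% counted as higher). It rose by 0.66 ± 0.13 on the log2 scale, 58.4% higher in HF day 56 muscle (95% interval 0.40 to 0.92, limma adjusted p = 0.00274), with 10 of 10 HF arrays above the day 0 mean and 8 above the highest day 0 array. The Plin5 call held in all 20 fits that left out 1 array of either group. It was lost with the adipocyte marker mean as a covariate (0.74 ± 0.18, adjusted p = 0.0689), where the estimate and its error were both larger. That fit called 0.334% of all entries. With the array set and the adipocyte marker mean both in the fit, the difference was 0.78, the highest of 16 alternative fits. Plin5 passed in 13 of these 16. The difference was 0.44 within the set of 9 (3 arrays against 3, adjusted p = 0.555) and 0.30 without the arrays high in S100a8 (4 HF and 3 LF day 0 arrays, adjusted p = 0.765). Those fits called 0% and 0.0364% of all entries, so the loss of the call in them says little, but both estimates were also below 0.66. The 4 HF arrays low in S100a8 include replicates 5 and 9, which had the lowest slow fibre marker means of the HF group. In the set of 21 the Plin5 difference was 0.76 (adjusted p = 0.0073), where 0.813% of all entries were called.

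Of the other 8 genes, 7 were higher in HF day 56 muscle and Plin3 was lower, without passing. The smallest adjusted p-values were 0.0681 for Plin4 (0.23 ± 0.07), 0.0948 for G0s2 (0.35 ± 0.10) and 0.11 for Pnpla2 (0.27 ± 0.08). Plin4 was above the day 0 mean on 9 of 10 HF arrays, as were G0s2 and Pnpla2. Leaving out LF day 0 replicate 5 or HF replicate 3 took Plin4 past the threshold (adjusted p = 0.048 and 0.0084), and leaving out HF replicate 5 did so for G0s2 (adjusted p = 0.0376). The G0s2 difference was 0.50 within the set of 21 arrays (adjusted p = 0.0367) and 0.0051 within the set of 9 (adjusted p = 0.998). Lipe had the largest log2 difference at 0.71 and the largest error, ± 0.32 (adjusted p = 0.389). It was near the limit of 20 in the day 0 group, exceeding it on 5 of 10 LF day 0 arrays and 10 of 10 HF day 56 arrays. The median of the 9 differences was 0.27 against 0.00 over all entries, and 8 had an unadjusted p at or below 0.05, as did 11% of all entries and 15.9% of those present.

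Markers of other cell types moved in the same comparison. Of 6 tendon markers 4 fell in HF day 56 against LF day 0 muscle: Kera by 0.86, Tnmd by 0.63, Fmod by 0.45 and Thbs4 by 0.42, and the 6 had a summed intensity of 1985 to 3392 in HF day 56 and 3118 to 4769 in LF day 0 muscle. Of 6 endothelial markers Cldn5 fell by 0.71 (limma adjusted p = 0.0207). Their part in the values of the 9 genes was not tested.

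Adipocyte markers rose there as well. Of the 9 measured, 5 rose in HF day 56 against LF day 0 muscle: Lep (leptin) by 2.28, Cidec by 1.81, Adipoq (adiponectin) by 1.11, Adig by 1.05 and Retn (resistin) by 0.82. Fabp4 differed by 0.18 without passing. Of the 9 differences 8 were above 0 and that of Pck1 was below it, at -0.10. Pck1 was also lower between the diets, at -0.48 (limma adjusted p = 0.991). Lep exceeded 20 on 6 of 30 arrays, all in HF day 56. Its highest intensity was 17.7 in LF day 56 and 8.8 in LF day 0, so HF day 56 alone made it count as present. The 7 present markers were Adipoq, Lep, Retn, Adig, Cidec, Fabp4 and Pck1. Their mean log2 level had a lowest, median and highest of 6.22, 7.10 and 8.19 in HF day 56, against 6.27, 6.50 and 7.44 in LF day 56 and 5.88, 6.07 and 6.90 in LF day 0 muscle. In the other 2 comparisons 0 of 9 passed (5 at an unadjusted p of 0.05 or less between the diets and 3 between LF day 56 and LF day 0), with the smallest limma adjusted p between the diets that of Lep (0.0911). With this mean as a covariate, the HF day 56 against LF day 0 differences were 0.02 for G0s2, 0.18 for Lipe, 0.08 for Plin4, -0.01 for Mgll and -0.09 for Plin2, and that fit called 0.334% of all entries. The mean itself differed between these groups (7.16 in HF day 56 and 6.14 in LF day 0), so this fit cannot part adipocyte RNA from diet and age. The part of adipocyte RNA in these differences was not tested. The slow fibre markers had 0 of 8 passing in all 3 comparisons, and 0 at an unadjusted p of 0.05 or less. This does not show equal levels, since the errors were wide (± 1.11 on the log2 scale for Myh7). The median of their summed intensity was 3950 in HF day 56, 4020 in LF day 56 and 1566 in LF day 0 muscle.

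**Figure D2:**
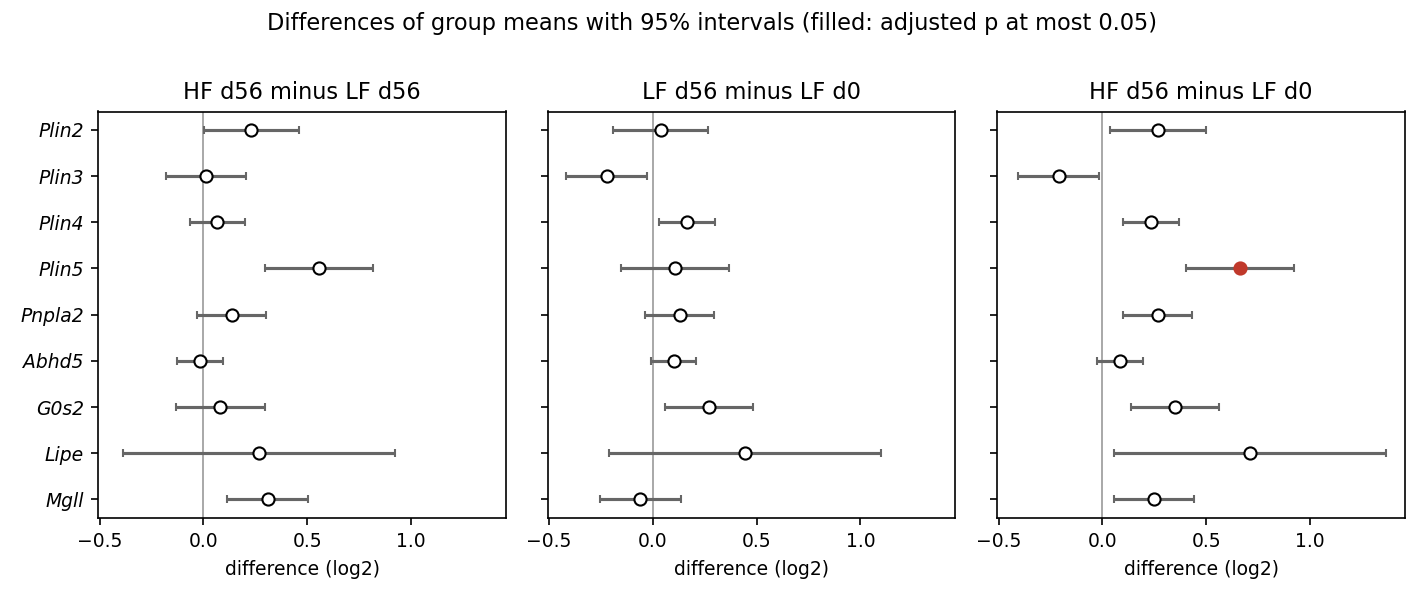
Log2 difference of each of the 9 genes in the 3 comparisons (HF day 56 minus LF day 56, LF day 56 minus LF day 0, HF day 56 minus LF day 0), with 95% intervals from limma as bars and filled points where the adjusted p was at most 0.05. Plin5 in HF day 56 against LF day 0 is the 1 value past the threshold (0.66), and its diet difference of 0.56 is next in size among the perilipins.

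**Figure D3:**
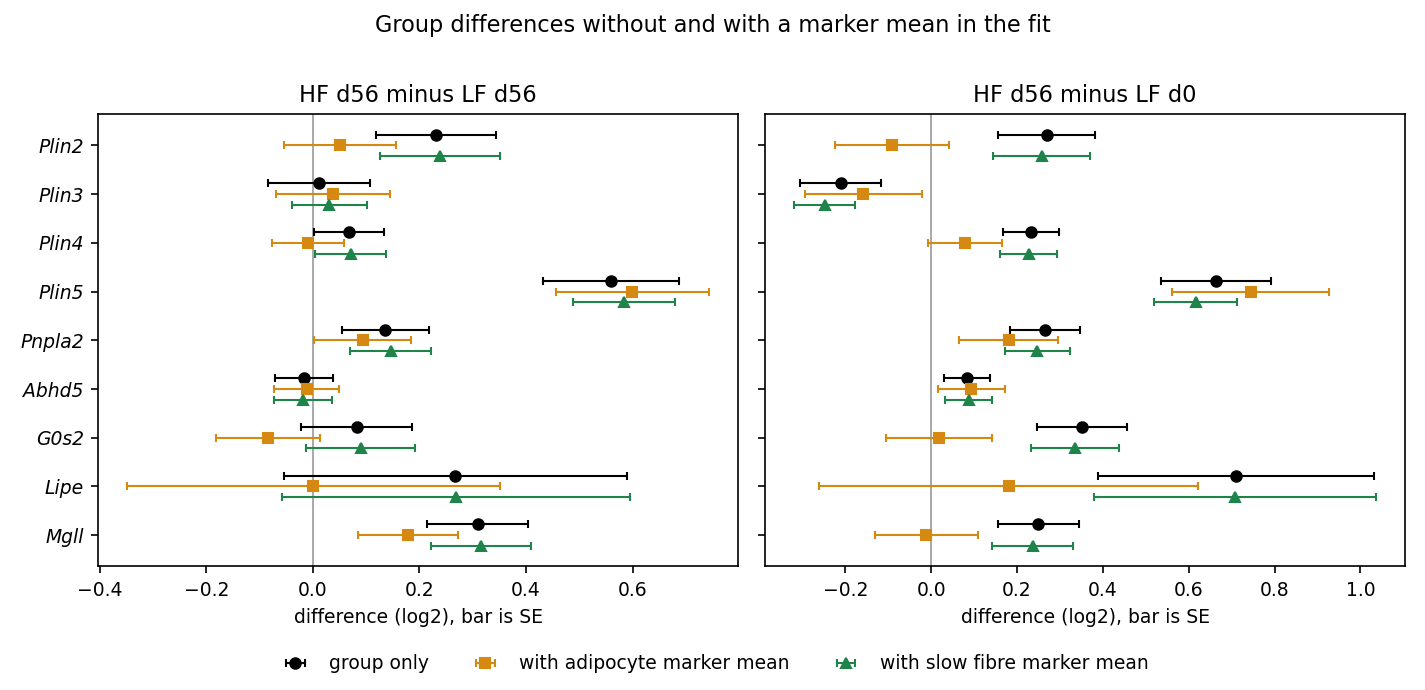
Log2 differences of the 9 genes for HF day 56 minus LF day 56 and HF day 56 minus LF day 0, from the fit on group alone (black circles) and from fits with the adipocyte (orange squares) or slow fibre marker mean (green triangles) added, with the SE as bars. The Plin5 estimate between the diets is 0.58 with the slow fibre mean and 0.56 on group alone, while the G0s2 estimate against day 0 is 0.02 with the adipocyte mean and 0.35 on group alone.

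The array set moved with some of the genes. Lipe was 2.54-fold higher on the 9 arrays than on the 21, with group in the fit (log2 difference 1.34 ± 0.16, limma adjusted p = 1.17e-07). On the 9 it read 47.7, 74.5 and 102 (lowest, median, highest), against 14.7, 28.3 and 59.8 on the 21. Abhd5 was higher by 0.17 ± 0.04 (adjusted p = 0.000721), and these were the 2 of the 9 genes that passed, beside 23.1% of all entries. Because every group holds 3 of the 9 arrays, the differences between groups were the same with the set as a factor, and the errors were smaller for all of the genes but Plin4. The Lipe difference between HF day 56 and LF day 0 then passed (0.71 ± 0.18, adjusted p = 0.0213), in a fit that called 2.33% of all entries. With the set and the adipocyte marker mean both in the fit, this Lipe difference was -0.023 (adjusted p = 0.992). A test of whether the diet difference itself differed between the sets passed for 0 of 9 genes (every limma adjusted p = 0.99985 and 0 at an unadjusted p of 0.05 or less, with Plin5 at 0.27 ± 0.25). What set the 2 array sets apart is not given in the sources used here, and its part in these results was not tested beyond these fits.

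**Figure D4:**
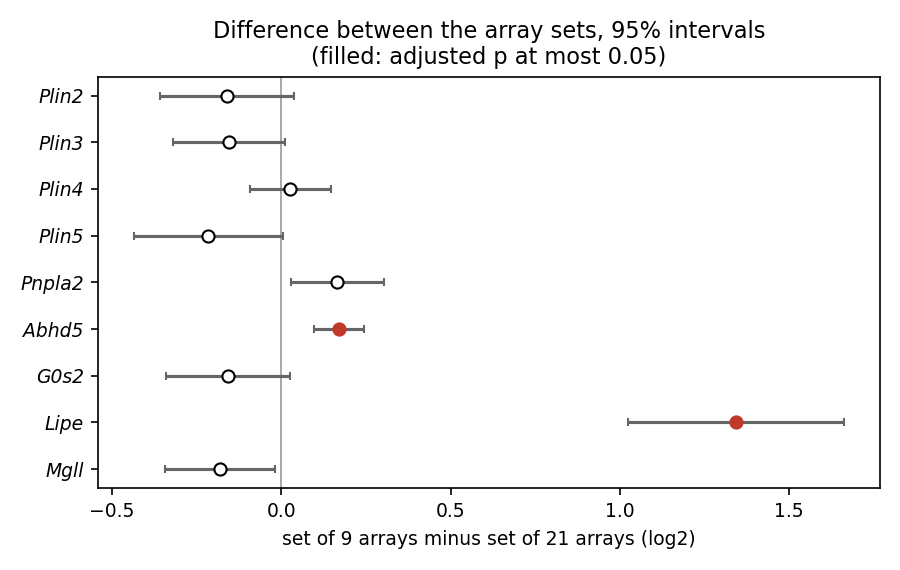
Log2 difference between the set of 9 arrays and the set of 21 for each of the 9 genes, with 95% intervals, group in the fit and filled points where the adjusted p was at most 0.05. Lipe at 1.34 lies far from the others, Abhd5 is at 0.17, and the rest span -0.21 (Plin5) to 0.17 (Pnpla2).

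The genes were set against the marker means within the 21 arrays, after subtraction of group means, as 18 relations adjusted together. 4 passed, all with positive r. Over all 30 arrays, with the means of each group within each array set removed, these 4 and Plin2 with the adipocyte mean passed (r = 0.54, permutation test, adjusted p = 0.0114), for which r was 0.57 in the 21 arrays (permutation p = 0.0147, adjusted p = 0.053). Lipe followed the adipocyte mean (r = 0.77, permutation p = 0.00026, adjusted p = 0.00468; rho = 0.73, permutation p = 0.00287), and r was 0.72 without the 2 arrays farthest from the median and 0.82 in the 9 arrays. G0s2 also followed the adipocyte mean (r = 0.50, permutation p = 0.00463, adjusted p = 0.0208; rho = 0.50, permutation p = 0.0123), with r = 0.46 without the 2 farthest arrays. Plin5 followed the slow fibre mean (r = 0.68, permutation p = 0.00089, adjusted p = 0.00582; rho = 0.66, permutation p = 0.00212), with r = 0.51 without the 2 farthest arrays and 0.82 in the 9. Plin3 did likewise (r = 0.70, permutation p = 0.00097, adjusted p = 0.00582; rho = 0.56, permutation p = 0.0128), with r = 0.50 without the 2 farthest arrays and 0.90 in the 9. By rank, the Lipe and Plin5 relations also passed after adjustment (adjusted p = 0.0258 for both), and those of Plin3 and G0s2 did not (0.0577 for both). Plin5 against the adipocyte mean gave r = -0.41 (permutation p = 0.152, adjusted p = 0.303). The slow fibre mean ran from 4.15 to 9.67 over the 30 arrays without a gap wider than 0.72.

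**Figure D5:**
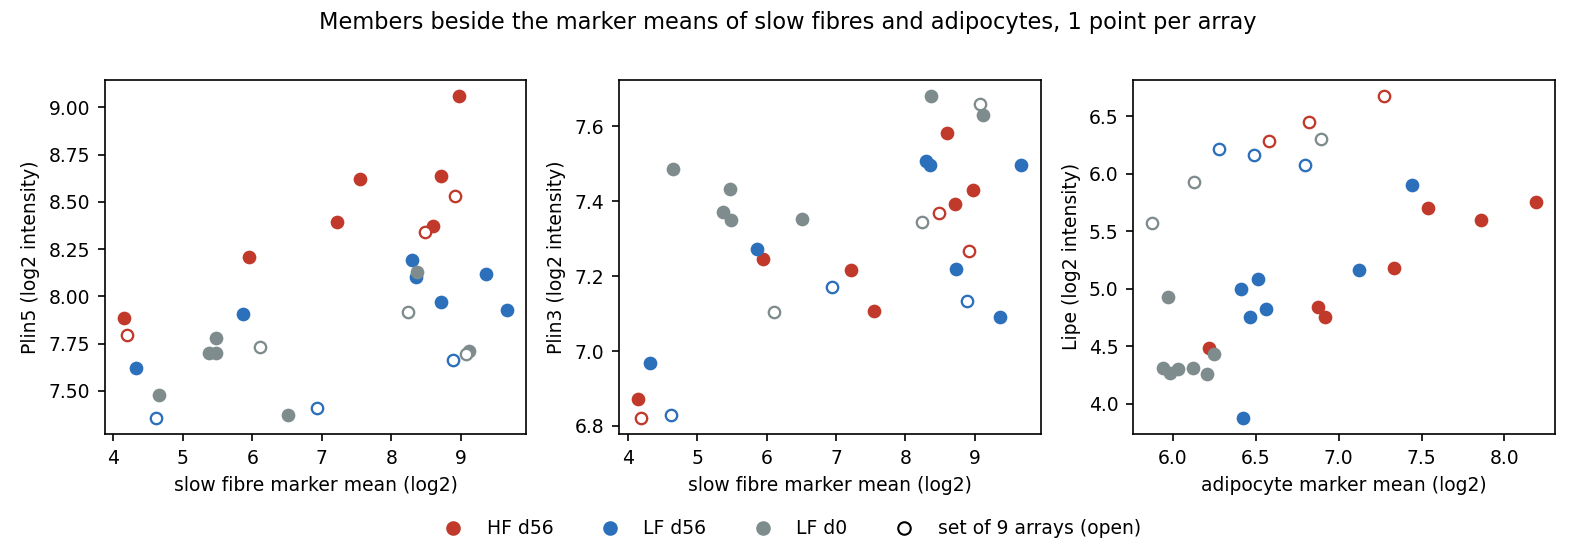
Plin5 and Plin3 against the slow fibre marker mean, and Lipe against the adipocyte marker mean (all log2 intensity), with 1 point per mouse in red (HF day 56), blue (LF day 56) or grey (LF day 0), open for the set of 9 arrays. Within the 21 arrays, r after subtraction of group means was 0.68 for Plin5, 0.70 for Plin3 and 0.77 for Lipe.

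Among themselves, the 9 genes gave 36 pairs within the 21 arrays. None passed after adjustment (0 of 36 by permutation, two-sided, with 8 at an unadjusted p of 0.05 or less), and 32 of the r values were positive, from -0.42 (Plin5 with Lipe) to 0.64 (Plin4 with Pnpla2, adjusted p = 0.11). Over all 30 arrays, with the means of each group within each array set removed, 5 pairs passed: Plin5 with Pnpla2 (r = 0.64), Plin4 with Pnpla2 (0.64), G0s2 with Mgll (0.63), Plin3 with Plin5 (0.57) and Plin4 with Mgll (0.56). The genes whose pattern was most like each member were found on the same 30 values, by Pearson r among 6595 genes that exceeded an intensity of 20 on 5 or more arrays. For Plin5 they were Bdh1, a mitochondrial enzyme of ketone body use (0.87), Actn2, an actinin of the muscle Z-disc (0.86), and Smtnl1 (0.85). For Pnpla2 they were Txn2, the mitochondrial thioredoxin (0.82), Hadha, a fatty acid oxidation enzyme (0.81), and Npr2 (0.80). For Plin3, Pdlim1 (0.79), the slow fibre gene Tnnt1 (0.78) and Plpbp (0.77) led. For Lipe the 3 were Adipoq (0.73), Prkar2b (0.73) and Cidec (0.72). For Plin2 they were Fabp4, the fatty acid binding protein of adipocytes (0.64), Tkt (0.63) and Prkar2b (0.62). The highest r values for the others were 0.75 for Mgll with Vps16, 0.73 for Plin4 with Cpsf7, 0.72 for Abhd5 with Vps11 and 0.70 for G0s2 with Ywhaq. These are descriptions over shared arrays and are given without p-values. Adipoq, Cidec and Fabp4 are in the adipocyte mean and Tnnt1 is in the slow fibre mean. Their matches are therefore not separate from the relations with those means given above.

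A pair of further lists placed the 9 genes in their pathway. Of 20 other droplet proteins, 19 were measured. None passed in limma between the diets (1 at an unadjusted p of 0.05 or less) or between LF day 56 and LF day 0 (3 such), and 1 rose in HF day 56 against LF day 0: Cidec, a droplet fusion protein of adipocytes that is also among the adipocyte markers (1.81 ± 0.34, limma adjusted p = 0.00254). Its diet difference was 0.75 ± 0.34 (adjusted p = 0.948). Fitm1, which promotes droplet formation in muscle, differed by -0.10 ± 0.09 between the diets (adjusted p = 0.998). The list medians were 0.00, 0.03 and 0.04 for HF against LF day 56, LF day 56 against LF day 0 and HF day 56 against LF day 0.

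Of 24 other lipolysis genes and regulators, 20 were analysed here. Between the diets 0 passed (2 at an unadjusted p of 0.05 or less), and the smallest p was that of Cav1, caveolin-1 (0.20 ± 0.06, adjusted p = 0.551). Abhd6, a monoacylglycerol lipase, rose in LF day 56 against LF day 0 muscle (0.42 ± 0.10, adjusted p = 0.0285) and in HF day 56 against the same day 0 arrays (0.39 ± 0.10, adjusted p = 0.0281). Abhd6 was above 20 on 11 of 30 arrays, with medians of 19.2 in HF day 56, 20.4 in LF day 56 and 14.1 in LF day 0 muscle. With 1 array left out its call held in 11 of 20 fits for LF day 56 against LF day 0 (adjusted p up to 0.0609) and in 12 of 20 for HF day 56 against LF day 0 (up to 0.0598). Prkar2b, a regulatory subunit of protein kinase A, rose in HF day 56 against LF day 0 (1.01 ± 0.27, adjusted p = 0.0421), a call that held in 6 of 20 fits with 1 array left out (adjusted p up to 0.0883). It was above 20 on 7 of 30 arrays, with medians of 20.5 in HF day 56 and 9.0 in LF day 0 muscle, and its difference was -0.27 with the adipocyte marker mean as a covariate. The list medians in the same order were 0.05, 0.06 and 0.11.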

How the data were processed

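Quadriceps RNA of 30 mice was labelled with biotin and hybridised to Affymetrix arrays, per the labels' protocols. The deposited table gives a linear intensity for each gene on each array. The authors computed these with GCRMA, per the submitters' processing notes; its version, the probe-to-gene annotation and the genome build are not given in the sources used here. Groups came from the labels, which give each mouse its own number. Of 16539 entries, 64 controls were left out; 15780 of the rest had 1 gene symbol, 0 several and 695 none. The log2 intensity was tested with limma 3.58.1 (lmFit, eBayes) in R 4.3.3 on all 30 arrays by group alone, with 27 residual degrees of freedom and Benjamini-Hochberg adjustment over 16475 entries at 0.05. The fit was tested on simulated data. Correlations used 100000 permutations within groups (Python 3.11.15, scipy 1.17.1). Array sets were parted at the widest gap (0.212) in the 5′ minus 3′ log2 signal of the spike-ins. An entry was taken as present when it exceeded 20 on 5 or more arrays; arrays high in S100a8 exceeded 100. No 2 arrays held identical values. Alternatives changed the prior, array weights, normalization, pseudocount (16), filter, threshold (0.1), covariates, array set and single arrays.

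The members and the lists were chosen with earlier results of these data known. Named genes are the 9 members, the list genes that passed or had the 4 smallest p-values in a comparison, not all of which are printed, the markers beside a result and the 3 genes most like each member. Promoter windows are RefSeq's.

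Replicate numbers recur across groups, and the labels pair no mice. Same-numbered arrays deviated together no more than others (30 pairs, r from -0.54 to 0.57, median -0.11, against a median of -0.03 over 270 other pairs), so no block was used.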

Additional observations from a re-analysis of the deposited data

How the results depend on the processing

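Of 459 estimates for the 9 genes under the alternatives, 420 kept their direction and side of the threshold, 23 changed sign, 13 moved past the threshold and 3 fell back. The 459 include the threshold of 0.1, which kept the estimates of the fit reported and changed only the limit. Cidec and Fabp4, printed besides, are themselves in the adipocyte mean, so a fit with it adjusts each for a mean that holds its own values. The cause of the sign changes was not tested. The covariate fits that join the array set with a marker mean were chosen after seeing the data. Between HF and LF day 56, signs changed in the set of 21 for Plin3 (-0.029) and Abhd5 (0.014); with the adipocyte mean for Plin4 (-0.0091), G0s2 (-0.085), Cidec (-0.16) and Prkar2b (-0.053); without S100a8-high arrays for Plin3 (-0.060), Pnpla2 (-0.032), Lipe (-0.13) and Nsdhl (0.012); and with set and adipocyte mean for Plin4 (-0.012), G0s2 (-0.076), Lipe (-0.10), Cidec (-0.18) and Prkar2b (-0.051). With the slow fibre mean, alone or with the set, 1 of the 9 genes passed. Between LF day 56 and LF day 0, signs changed in the set of 21 for Mgll (0.032); in the set of 9 for Plin2 (-0.28), Plin5 (-0.30), G0s2 (-0.038) and Prkar2b (-0.012); with the adipocyte mean for Plin2 (-0.14) and Prkar2b (-0.22); without S100a8-high arrays for Plin5 (-0.11) and Ces1d (-0.031); and with set and adipocyte mean for Plin2 (-0.13) and Prkar2b (-0.22). With set and slow fibre mean 1 gene passed there, Plin3 (-0.28, adjusted p = 0.0158). Between HF day 56 and LF day 0, the 9 genes had 2 passing with a trended robust prior, median centring, present entries alone, the set as a factor or the set of 21; 3 at a threshold of 0.1; 4 with set and slow fibre mean; and 0 in the set of 9, with the adipocyte mean or without S100a8-high arrays. Signs changed in the set of 9 for Plin2 (-0.038) and Mgll (-0.058); with the adipocyte mean for Plin2 (-0.092), Mgll (-0.011), Prkar2b (-0.27), Fabp4 (-0.11) and Cav1 (-0.018); without S100a8-high arrays for Nsdhl (0.063); and with set and adipocyte mean for Plin2 (-0.075), Lipe (-0.023), Cidec (-0.049), Prkar2b (-0.27), Fabp4 (-0.096) and Cav1 (-0.020). Over all 30 arrays 5 pairs of the 9 genes passed. Leaving out 1 array at a time gave 0 to 1 passing between the diets and 1 to 2 between HF day 56 and LF day 0. It gave estimates of -0.032 to 0.057 (Plin3) and -0.039 to 0.012 (Abhd5) between the diets, and of -0.040 to 0.11 (Plin2) for LF day 56 against LF day 0. Over all entries the calls ranged from 0 to 22 between the diets (4 in the fit reported), from 11 to 273 for LF day 56 against LF day 0 (140) and from 0 to 419 for HF day 56 against LF day 0 (262).

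With the replicate number as a block, 0, 0 and 1 of the 9 genes passed in these 3 comparisons, in the order above, and 1, 104 and 209 of all entries; Plin5 differed by 0.56 between the diets (adjusted p = 0.208). No call on the 9 genes changed, and 5 of 30 arrays correlated best with an array of their own number.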
